A study of Homo sapiens with 18 samples.

Results

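The response of Sp100 knockout keratinocytes to 48 h of interferon alpha is described here from 6 of the 18 libraries of the series, chosen by their column names: 3 libraries of knockout (KO) cells kept for 48 h in interferon and 3 of untreated KO cells. The cells are NIKS, an established line of immortalized human keratinocytes, grown on lethally irradiated J2/3T3 mouse fibroblasts in a serum medium with epidermal growth factor. Polyadenylated RNA was sequenced with strand kept. The treated KO cells were Sp100 knockout NIKS given human interferon alpha 2a at 25 ng/mL for 48 h, and their controls were the same KO cells without interferon, labelled 0 h. Beside them stand KO cells at 12 h in the same interferon and NIKS of the wild-type (WT) Sp100 genotype at 0 and 48 h, each with 3 libraries labelled as biological replicates. The column names give a single line for KO and a single one for WT, so effects of the Sp100 genotype and of the line cannot be told apart. No untreated library at 48 h was analysed here, so interferon and time in culture cannot be told apart either.

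Type I interferons bind the receptor pair IFNAR1 and IFNAR2, whose kinases TYK2 and JAK1 phosphorylate STAT proteins such as STAT2. These join IRF9 to form ISGF3, a transcription factor that binds the interferon-stimulated response element in the promoters of interferon-stimulated genes. Many of those genes encode proteins that restrict viruses, sense foreign RNA or present antigen, and SP100, a component of PML nuclear bodies, is itself interferon-inducible. Keratinocytes, the main cells of the epidermis, meet this signal during viral infection of the skin.

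Values are RPKM, a read count corrected for gene length and library size, and errors are SD over 3 libraries unless stated. Changes are differences of mean log2(RPKM + 1), which understate the change of low genes, with their SE. Genes with at least 1 RPKM in at least 3 libraries were tested (13280 of 16472), and a gene was called where the limma p-value was below 0.05 after Benjamini-Hochberg adjustment across the tested genes. P-values measure only the spread between these samples, since the labels do not say that replicates came from separate cultures. The total number of reads is unknown. Relative depth, estimated from low values, ranged 1.43-fold over the 18 libraries, from 0.857 to 1.226. Replicates of a group had Pearson correlations of 0.985 to 0.989 across genes. All 10 keratinocyte markers were tested, and their summed level was 15878 to 16796 RPKM in untreated KO libraries and 16571 to 17591 RPKM at 48 h. Of 12 fibroblast markers, 4 were in the table and 3 were tested, and their sum was 523.3 to 555.6 RPKM untreated and 504.8 to 517.2 RPKM at 48 h. VIM and FN1, which keratinocytes in culture also express, made up nearly all of that sum, while COL1A1 was at 1.48 RPKM untreated and 2.00 RPKM at 48 h. Of 11 immune cell markers 3 were in the table, with a sum of 4.9 to 7.0 RPKM untreated and 2.4 to 3.2 RPKM at 48 h, nearly all from CD14. Of 6 melanocyte markers 2 were in the table, at 1.0 to 1.9 RPKM in sum untreated and 1.0 to 1.4 RPKM at 48 h, and none of the 5 endothelial markers was tested. The part of other cells in the results was not tested, and in bulk RNA fewer cells of a type and less RNA per cell cannot be told apart.

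SP100 RNA (ENSG00000067066), the targeted gene, was at 15.97, 14.22 and 15.21 RPKM in untreated KO libraries and at 59.5, 57.4 and 62.4 RPKM after 48 h of interferon. The groups did not overlap, and the mean rose 3.95-fold. The difference was 1.91 ± 0.06 (SE) on the log2 scale (limma, adjusted p = 2.21e-13). In WT cells SP100 went from 30.1, 31.9 and 27.9 RPKM to 127.1, 123.7 and 131.3 RPKM, a rise of 2.05 on the log2 scale, and the 2 rises did not differ past the threshold (interaction -0.14 ± 0.08, limma adjusted p = 0.844). The KO libraries thus still held SP100 RNA, below every WT library of the same time. Where in SP100 the knockout lies, and whether any of this RNA encodes protein, is not given in the sources used here. SP110 and SP140L are neighbouring relatives of SP100, and the sources do not say how the counting treated reads that fit more than 1 of them. SP110 rose from 7.76 ± 0.742 to 52.9 ± 3.66 RPKM, and SP140L from 5.27 ± 0.818 to 9.41 ± 1.03 RPKM.

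At 48 h, 1770 genes were called in KO cells (13.3% of the genes tested), 784 of them higher (5.90%) and 986 lower (7.42%). The higher and lower genes differed in size. Among the higher genes, 511 changed by less than 0.5 on the log2 scale, 141 by 0.5 to 1, 62 by 1 to 2, 47 by 2 to 4 and 23 by 4 or more. Among the lower genes, 852 changed by less than 0.5, 123 by 0.5 to 1 and 11 by more, and none fell by 2 or more. A rise of at least 1 was called for 132 genes (0.994%) and a fall of at least 1 for 11 genes (0.0828%). The count of 1770 was 945 when the 6 libraries were fitted alone and 1159 without untreated KO replicate 1. The median change over all genes tested was -0.01.

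The 132 genes with a rise of at least 1 on the log2 scale were mostly low before treatment. Their median level in untreated KO cells was 3.68 RPKM, against 12.2 RPKM over all genes tested, and 46 of them were below 1 RPKM. Those 46 passed the filter only with the help of other libraries, such as treated ones. The contrast with all genes tested is thus partly fixed by the filter and by the choice of genes on their rise. The 132 genes, chosen on this comparison, made up 0.38% to 0.39% of the summed RPKM in untreated KO libraries, 2.72% to 2.77% at 12 h and 2.93% to 3.03% at 48 h.

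The 10 largest rises were those of IFI27, IFI6, MX1, BST2, IFI44L, IFITM1, MX2, IFIT1, IFI44 and ISG15. IFI27 (ENSG00000165949), a small hydrophobic interferon-inducible protein, went from 0.35, 1.15 and 0.71 RPKM to 2751, 2551 and 2214 RPKM, a difference of 10.52 ± 0.18 (limma, adjusted p = 8.44e-17). Every treated library lay far above every untreated one. IFI6 (ENSG00000126709), which protects cells against flaviviruses, went from 1.23, 1.00 and 1.23 RPKM to 1008, 1132 and 1144 RPKM. MX1 (ENSG00000157601), a dynamin-like GTPase that blocks influenza virus, went from 0.22, 0.28 and 0.17 RPKM to 483.3, 486.2 and 477.9 RPKM. BST2 (ENSG00000130303), or tetherin, which holds budding virions at the cell surface, went from 0.76, 0.44 and 0.26 RPKM to 438.0, 431.9 and 392.2 RPKM. The plot of the 10 genes by library shows that the untreated libraries sat near the bottom of the scale and that the replicates at 48 h lay close together.

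**Figure D1:**
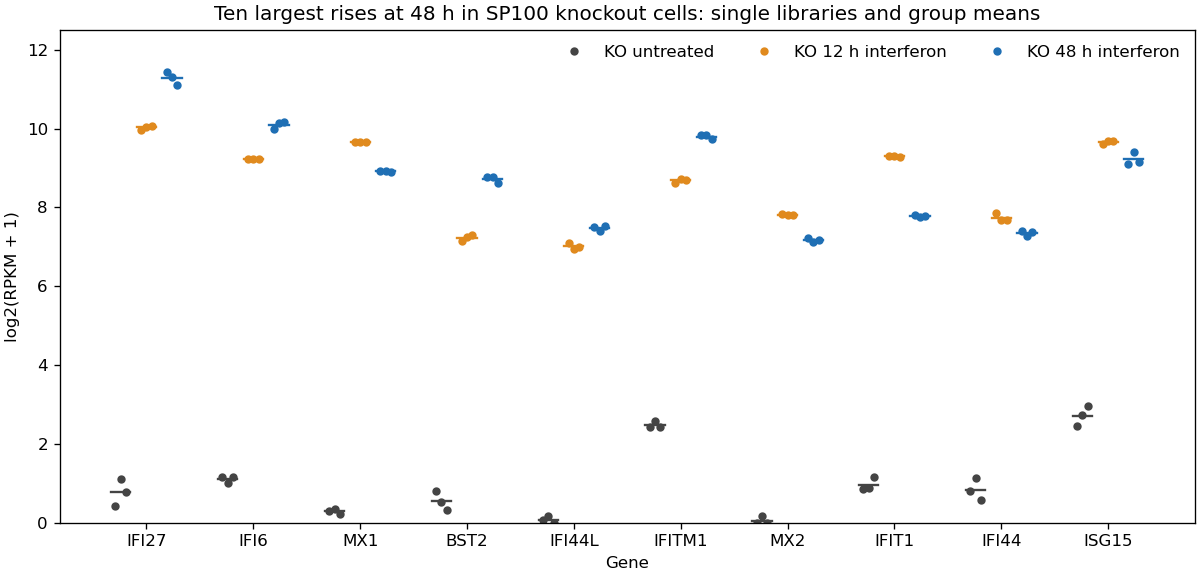
Values of log2(RPKM + 1) for the 10 genes with the largest rise, with a point for each KO library (untreated, 12 h and 48 h) and a bar for the group mean. In every gene the 48 h libraries lie above the untreated ones, and IFI27, IFI6, BST2, IFI44L and IFITM1 are higher at 48 h than at 12 h while the other genes shown are lower.

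Promoter sequences are shown for the 4 genes with the largest rises, because the element that ISGF3 binds is known by its letters. Only genes whose promoter held those letters could be shown, so a match in each printed stretch was fixed by the choice. They come from RefSeq (GRCh38.p14), where each window holds 250 bases before and 50 after an annotated start. Each printed stretch lies before the start and is written 5′ to 3′ on the gene's strand. Capitals mark the letters GAAA, any 2 bases (N) and GAAA again, searched on both strands, so that TTTC, 2 bases and TTTC is the same match on the other strand. The stretches are IFI27 at chr14:94110588-94110690 (+), IFI6 at chr1:27672236-27672388 (-), MX1 at chr21:41431814-41431903 (+) and BST2 at chr19:17405705-17405800 (-).
IFI27: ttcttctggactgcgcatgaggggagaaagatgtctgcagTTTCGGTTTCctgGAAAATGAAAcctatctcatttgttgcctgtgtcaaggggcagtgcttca
IFI6: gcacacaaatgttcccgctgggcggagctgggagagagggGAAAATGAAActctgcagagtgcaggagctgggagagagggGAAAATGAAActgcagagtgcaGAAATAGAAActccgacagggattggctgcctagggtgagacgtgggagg
MX1: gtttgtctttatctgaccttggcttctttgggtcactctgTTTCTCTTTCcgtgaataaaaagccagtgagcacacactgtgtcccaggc
BST2: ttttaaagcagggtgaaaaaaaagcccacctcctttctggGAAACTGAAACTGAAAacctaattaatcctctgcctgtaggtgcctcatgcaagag
The printed stretch of IFI27 holds 2 matches, that of IFI6 3, that of MX1 1 and that of BST2 2 that overlap each other. IFI27 has 2 windows and MX1 has 3, of which 2 in each gene hold the letters, and 1 is printed. In the promoter table as a whole, 1195 of 27305 genes (4.38%) had the letters in at least 1 window, as did 380 of the 9653 tested genes with an entry (3.94%). Among the genes called higher by 2 or more on the log2 scale, 28 of the 47 with an entry (59.6%) held them. They were held by 23 of 46 genes with rises of 1 to 2. The share was 10.9% (10 of 92) for rises of 0.5 to 1 and 5.67% (23 of 406) for smaller called rises. It was 3.33% (25 of 751) among the genes called lower and 3.26% (271 of 8311) among genes not called. The share was therefore lower where the rise was smaller, down to 5.67% for the smallest called rises, against 3.26% among genes not called. A match is a description of the letters, not of binding.

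The genes were then read by their roles, in lists of pathway members. Together, 14 of them (IFIT, OAS, MX, ISG15 conjugation, IFITM and BST2, IFI27, IFI6 and IFI44, RNA sensors, PARP and DTX3L, TRIM, APOL, effectors, guanylate-binding proteins, MHC class I, and immunoproteasome and peptide loading) named 111 genes, of which 102 were in the table and 99 were tested. Of the 99, 91 were called higher, 0 lower and 8 were not called, with a median change of 2.14, against 5.90% called higher and a median of -0.01 over all genes tested. The DNA sensor, APOBEC3, receptor and ISGF3, regulatory factor, chemokine, complement and SP100 family lists are not among these 14. There 3 of 7 DNA sensor, 2 of 4 APOBEC3 and 3 of 7 receptor and ISGF3 genes were called higher. So were 3 of 6 regulatory factor, 2 of 10 chemokine, 7 of 9 complement and 3 of 3 SP100 family genes. In the APOBEC3 and chemokine lists 1 gene each was called lower. The counts of the 14 lists thus do not stand for every interferon-related list. In WT cells 92 of the 99 were called higher, where 6.52% of all genes tested were.

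**Figure D2:**
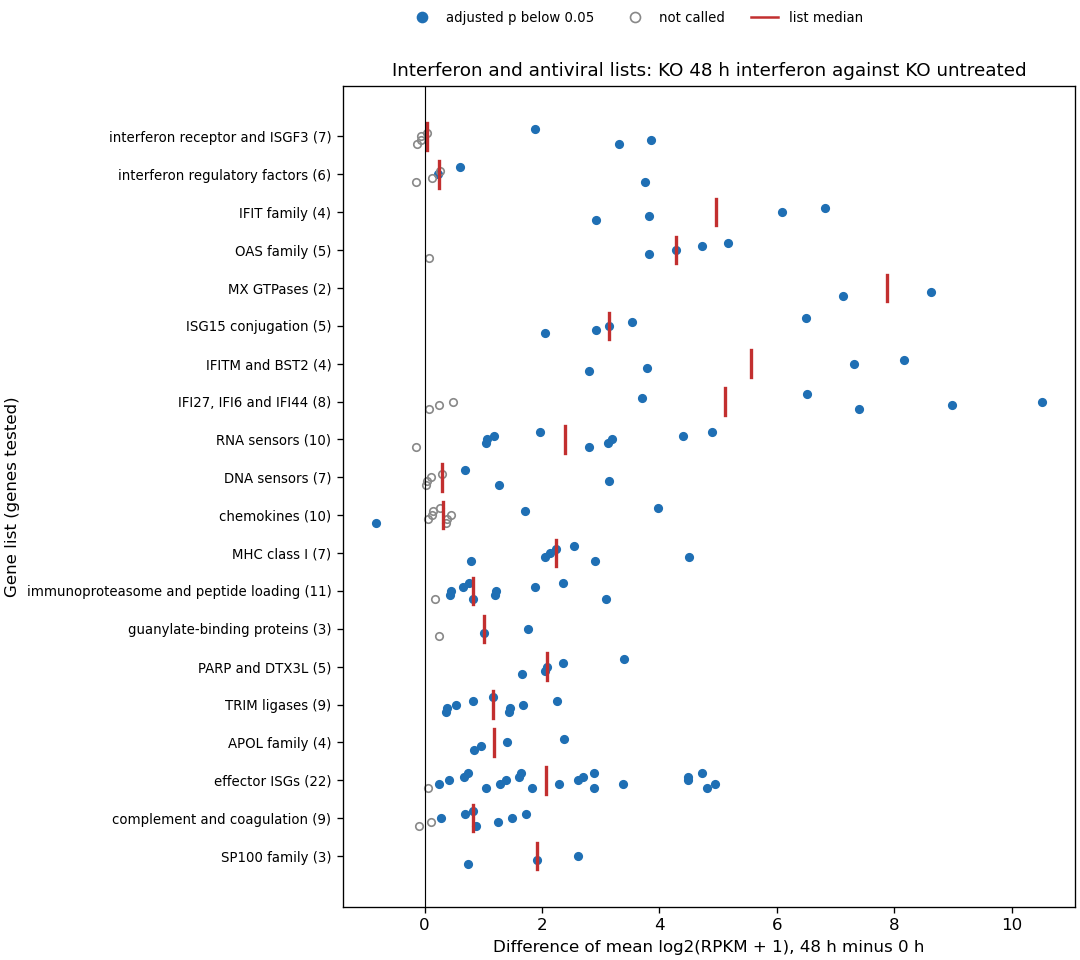
Change of each tested gene at 48 h in KO cells (difference of mean log2(RPKM + 1), 48 h minus untreated) in the interferon and antiviral lists. Filled points have an adjusted p below 0.05, open points do not, and the red bar is the list median. The IFIT, OAS, MX, IFITM and BST2, and IFI27 lists have medians from 4.29 to 7.88, while 4 of 7 receptor and ISGF3 genes are open points near 0. Open points are also 3 of 8 genes in the IFI27 list and 1 of 5 in the OAS list, which includes RNase L.

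Of the receptor and its signalling chain, the transcription factor subunits rose and the receptor and kinases did not pass the test. IRF9 went from 4.81, 4.38 and 2.84 RPKM to 76.8, 69.2 and 66.3 RPKM, a difference of 3.86 ± 0.11 (limma, adjusted p = 1.02e-13). STAT2 rose 3.94-fold, from 10.5 ± 0.367 to 41.4 ± 0.723 RPKM. The groups of both genes were apart. IFNAR1 was at 29.4, 28.4 and 32.9 RPKM before treatment and at 25.1, 27.7 and 29.8 RPKM after it, and its groups overlapped (adjusted p = 0.300). The changes of IFNAR2, TYK2 and JAK1 were -0.06, -0.06 and 0.04, and none was called. Among 8 tested inhibitors of the pathway, USP18, the protease that removes ISG15 and also restrains IFNAR2, was the member called higher, at 3.70 ± 0.05, and 7 were not called. Of 6 tested regulatory factors other than IRF9, 3 were called higher, among them IRF7 (3.75), which amplifies interferon production, and IRF1 (0.61). Over all genes tested, 5.90% were called higher.

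Genes whose products act on viral RNA rose in nearly every list member tested. The IFIT proteins bind viral RNA ends, and all 4 tested were called higher, with a median change of 4.96. IFIT1 went from 0.81, 0.83 and 1.22 RPKM to 221.8, 213.3 and 220.2 RPKM, and IFIT3 from 2.39, 2.38 and 2.33 RPKM to 232.7, 223.4 and 232.1 RPKM. IFIT5 and IFIT2 rose by 3.82 and 2.92. The OAS enzymes make oligoadenylates when they bind foreign RNA, and all 4 OAS genes rose, OAS1 by 5.16, OAS2 by 4.72, OAS3 by 3.83 and OASL, a relative without that enzyme activity, by 4.29. Of 10 tested RNA sensors and their partners, 9 rose, with a median of 2.38, including RIGI (4.41), IFIH1 (3.13) and DHX58 (2.80), while the adaptor MAVS was at -0.14 and not called. Of 7 genes of the DNA sensing pathway 3 were called higher, SAMHD1 (3.15), IFI16 (1.27) and TREX1 (0.69), where 5.90% of all genes tested were. CGAS, STING1, TBK1 and AIM2 were not called, with changes of 0.03 to 0.30. How reads shared between close relatives, such as the IFIT, OAS and IFITM genes, were assigned is not stated, so the split between them is uncertain.

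The ISG15 system attaches a ubiquitin-like protein to targets, and its modifier, E1, E2 and E3 enzymes all rose. ISG15 went from 4.46, 5.68 and 6.77 RPKM to 552.1, 678.2 and 563.6 RPKM, and the E2 enzyme gene UBE2L6 from 13.08, 12.52 and 10.79 RPKM to 155.1, 152.3 and 142.9 RPKM. The ligase genes HERC6 and HERC5 rose by 3.14 and 2.92, and UBA7, the E1, by 2.04. The restriction factors of the IFITM family, which hinder viral fusion, were already present before treatment: IFITM3 went from 116.0, 111.0 and 110.3 RPKM to 1591, 1678 and 1445 RPKM, 14.0-fold higher. IFITM1 started lower and rose 194.0-fold, from 4.58 ± 0.359 to 889.1 ± 33.0 RPKM. The PARP and DTX3L list, of ADP-ribosylation enzymes, had 5 of 5 genes higher with a median of 2.09, led by PARP9 at 3.39. The 9 tested TRIM ubiquitin ligases were all called higher, with a median of 1.17, from TRIM34 at 0.37 to TRIM22 at 2.26. Of 22 tested effector genes 21 rose, with a median of 2.07, among them TYMP (4.95), LGALS9 (4.81) and RSAD2 (4.72), the gene of viperin. RSAD2 was listed at 0 in 2 of 3 untreated KO libraries and was at 25.4, 25.5 and 25.9 RPKM at 48 h. All 4 tested genes of the APOL family of lipid-binding proteins were higher, with a median of 1.19, as were 2 of 3 guanylate-binding proteins, GBP1 (1.76) and GBP3 (1.01). Of 4 APOBEC3 cytidine deaminase genes, APOBEC3G (0.80) and APOBEC3F (0.27) were called higher and APOBEC3C lower (-0.24). The shares over all genes tested were 5.90% called higher and 7.42% lower. APOBEC3F lost its call without untreated replicate 1 or 3 or 48 h replicate 1 or 2, and in the fit of the 6 libraries alone.

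Genes of antigen presentation by MHC class I also rose. B2M, the light chain, went from 990.3, 953.6 and 879.3 RPKM to 4274, 4000 and 4198 RPKM, 4.42-fold higher, a difference of 2.14 ± 0.04 (limma, adjusted p = 7.21e-16). HLA-B rose 24.8-fold, from 11.39, 11.59 and 10.85 RPKM to 279.9, 273.3 and 284.3 RPKM, whereas HLA-C rose 6.02-fold from a higher untreated level. All 7 tested genes of the list were called higher, with a median of 2.24, down to HLA-E at 0.79, and NLRC5, the transactivator of this class, rose by 2.06. HLA genes are polymorphic and alike, so reads may have been split between them. Of 11 immunoproteasome and peptide loading genes 10 rose, with a median of 0.83, led by PSMB9 (3.09), PSMB8 (2.36) and TAP1 (1.88), and PSMB10 was not called at 0.18. The 30 constitutive proteasome subunits stood apart from these, with changes from -0.15 to 0.17. Among them 3 were called higher and 3 lower, where 5.90% of all genes tested were higher and 7.42% lower. Of these proteasome calls 0 higher and 1 lower were left when the 6 libraries were fitted alone. The higher count was 0 without untreated replicate 1 or 3 or 48 h replicate 1, and 1 without 48 h replicate 3. The lower count was 1 without 48 h replicate 2. Of 9 MHC class II genes 1 was in the table and none was tested.

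Secreted and surface proteins gave a mixed picture. For the list counts in this part, the shares over all genes tested were 5.90% called higher and 7.42% lower. Of 10 tested chemokine genes, CXCL11 and CXCL10, ligands of CXCR3, a chemokine receptor found on T cells, rose by 3.97 and 1.72 on the log2 scale. CXCL14, a chemokine of normal epithelium, fell from 29.96, 26.71 and 26.26 RPKM to 14.95, 14.39 and 16.28 RPKM, and the other 7 were not called. TNFSF10, the death ligand TRAIL, rose 3.67-fold, from 5.45 ± 0.993 to 20.0 ± 0.564 RPKM, and 7 of 17 cell death genes were called higher and 0 lower. The higher count of that list was 5 in the fit of the 6 libraries alone and without 48 h replicate 3. TNFRSF10D, a decoy receptor for TRAIL outside that list, went from 18.49, 17.32 and 18.04 RPKM to 7.65, 7.58 and 7.95 RPKM, which is 43.0% of the untreated mean. CD274, the checkpoint ligand PD-L1, was at 1.58, 1.38 and 1.48 RPKM untreated and 2.89, 1.89 and 1.5 RPKM at 48 h, and it was not called (0.29 ± 0.18, limma adjusted p = 0.336). Of the 9 tested checkpoint ligands 3 were called higher, and 1 in the fit of the 6 libraries alone. Complement genes rose in 7 of 9 tested members, including CFB (1.73), C1R (1.49) and C3 (1.25), while the surface inhibitors CD46 and CD59 were not called. C3 went from 4.89, 3.28 and 5.79 RPKM to 12.20, 13.69 and 10.95 RPKM. Several complement genes were low, and with a mean of at least 5 RPKM required 4 were tested, of which 2 were called higher. Of 7 IL-1 family and inflammatory cytokine genes 3 were higher, led by IL1A (0.45), and IL18 was lower (-0.30). That higher count was 1 without 48 h replicate 1 or 2.

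Outside the lists, the 10 genes with a symbol that had the largest rises among those reaching 5 RPKM included HSH2D (3.46), HCP5 (2.52), GCA (2.31), GMPR (2.03), NMI (1.76), ISG20 (1.71), LY6E (1.64), HLA-H (1.56) and THEMIS2 (1.55). LY6E, a membrane protein that hinders coronavirus entry, was already at 300.1, 305.2 and 331.7 RPKM and reached 984.0, 1049 and 904.5 RPKM. HSH2D, an adaptor protein, went from 0.06, 0.03 and 0.34 RPKM to 11.74, 12.88 and 9.92 RPKM. HLA-H is a pseudogene close in sequence to the class I genes, so its value is uncertain.

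The 10 largest falls outside the lists among genes with a symbol and at least 5 RPKM in 1 group were those of RPLP0P9 (-1.84), DANCR (-1.73), ACO1 (-1.37), SNORD17 (-1.32), TNFRSF10D (-1.12), CLEC4OP (-1.04), CRABP2 (-1.04), CRIP2 (-1.02), RBM33-DT (-0.93) and HNRNPA1P10 (-0.91). DANCR, a long noncoding RNA, went from 66.6, 75.2 and 68.7 RPKM to 20.7, 21.6 and 19.1 RPKM, which is 29.2% of the untreated mean (limma, adjusted p = 1.71e-12). ACO1, the cytosolic aconitase that also acts as an iron regulatory protein, went from 23.1, 22.8 and 22.4 RPKM to 8.20, 7.96 and 8.50 RPKM. CRABP2, a carrier of retinoic acid, went from 36.1, 33.3 and 29.3 RPKM to 15.90, 16.35 and 14.26 RPKM. In these 3 genes the groups were apart and each group's libraries were close together. RPLP0P9 and HNRNPA1P10 are processed pseudogenes of abundant parents, so their reads may belong to the parents. RPLP0P9 was not called without untreated replicate 1 or 48 h replicate 2. CLEC4OP lost its call without untreated replicate 1 or 3 or 48 h replicate 2 or 3, RBM33-DT without untreated replicate 2 or 3 or 48 h replicate 1 or 3, and RBM33-DT, SNORD17 and HNRNPA1P10 in the fit of the 6 libraries alone. SNORD17 is a small nucleolar RNA, a class that mRNA libraries measure poorly, and its 48 h values of 2.83, 6.39 and 9.45 RPKM were spread widely.

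Cytosolic ribosomal protein genes fell together by a small amount. Of 76 tested, 57 were called lower and 0 higher, where 7.42% of all genes tested were lower, and the median change was -0.20. RPL7 went from 4367, 4113 and 3902 RPKM to 3052, 2921 and 2967 RPKM, which is 72.2% of the untreated mean. RPLP0 and RPS3A were at 70.6% and 71.7% of theirs. The list was not uniform, since RPL36 and RPS15 were at 0.05 and 0.00 and not called. Together these genes made up 19.54% to 20.08% of the summed RPKM in untreated KO libraries and 17.05% to 17.89% at 48 h. With median-of-ratios scaling 54 were called lower and the median was -0.19, and in WT cells 49 were called lower, with a median of -0.16. These genes have many processed pseudogenes, and how shared reads were assigned is not stated.

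**Figure D3:**
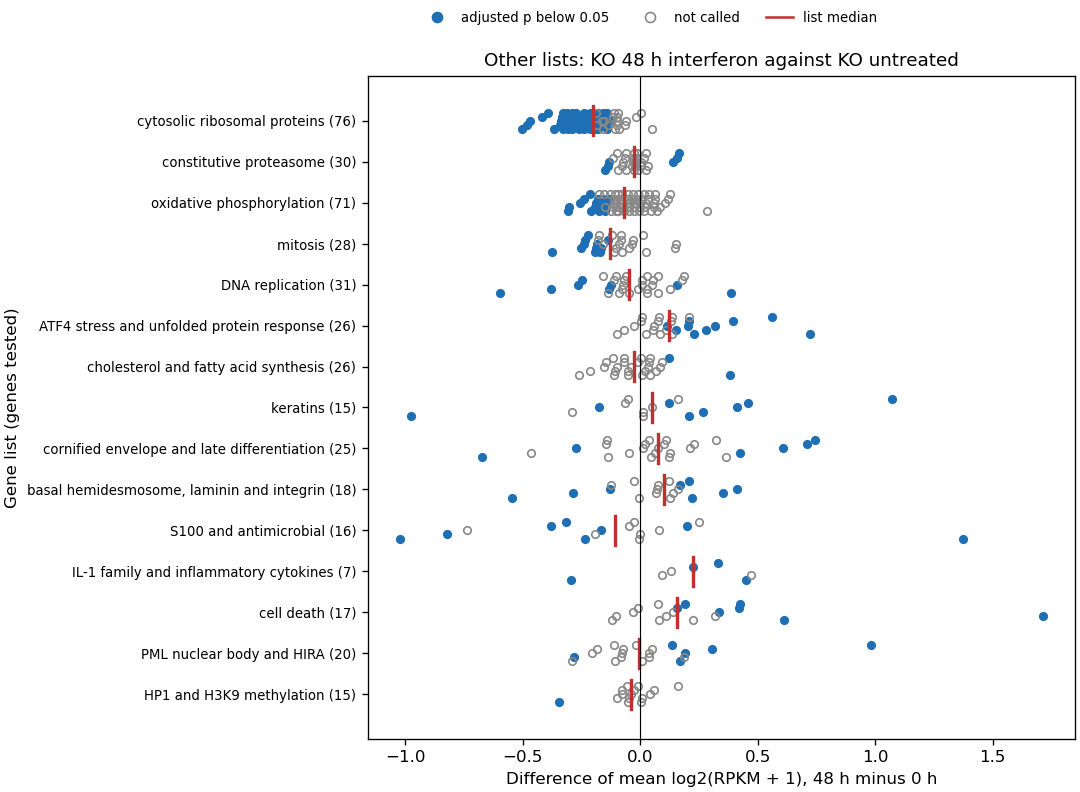
Change of each tested gene at 48 h in KO cells (difference of mean log2(RPKM + 1), 48 h minus untreated) in the lists of housekeeping, cell cycle, stress and keratinocyte genes, drawn as in the plot of the interferon lists. The ribosomal protein points lie almost all to the left of 0 with a median of -0.20, and the other lists have medians between -0.13 and 0.23.

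Changes in the cell cycle and energy lists were small in size. Of 28 mitosis genes 11 were called lower and 0 higher, where 7.42% of all genes tested were lower and 5.90% higher. Their median was -0.13, and CCNB1, cyclin B1, went from 207.2, 227.2 and 213.4 RPKM to 187.6, 178.7 and 176.9 RPKM. The count was 7 without untreated or 48 h replicate 2 and in the fit of the 6 libraries alone. Of 31 replication genes 6 were lower and 2 higher, and 3 were lower with median-of-ratios scaling or without untreated replicate 1 or 2. The higher count was 0 or 1 with any of the 6 libraries left out. Of 71 nuclear genes of oxidative phosphorylation 16 were lower and 0 higher, with a median of -0.07. That count was 7 in the fit of the 6 libraries alone and without untreated replicate 1, and 10 without untreated replicate 2 or 48 h replicate 2 or 3. Of 13 mitochondrially encoded genes MT-ATP8, MT-ATP6 and MT-CO3 were called lower, 0 of them without untreated replicate 2 or 48 h replicate 1 and 1 without untreated replicate 3. The ATF4 and unfolded protein response list had 10 of 26 genes higher and 0 lower, with a median of 0.12. Its members CHAC1, which degrades glutathione, SLC7A11, the cystine transporter, and ASNS, asparagine synthetase, rose by 0.72, 0.56 and 0.40. Of 26 cholesterol and fatty acid genes 2 were called higher, and the count was 0 without untreated replicate 1 or 2 or 48 h replicate 1 or 3. FASN, fatty acid synthase, was at 0.38 and lost its call in 9 alternatives.

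Of 20 hypoxia and glycolysis genes 3 were higher and 3 lower, such as CA9 (0.70) and ENO2 (-0.77), where 13.3% of all genes tested were called in either direction. The higher count was 1 in the fit of the 6 libraries alone. Of 7 NF-kB targets, BIRC3, an inhibitor of apoptosis, rose by 0.90 and NFKBIA, the inhibitor of NF-kB, was at -0.32, a call lost without untreated replicate 1 or 48 h replicate 2 or 3. Of 13 immediate early genes MYC was higher (0.40) and 2 were lower, with EGR1 at -0.41. The lower count was 1 without untreated replicate 1 or 3 or 48 h replicate 1 or 2. Of 8 genes of the EGFR family and its ligands 3 were higher, led by EPGN (0.91), and ERBB2 was at -0.25, a call lost without untreated replicate 1 or 48 h replicate 2. The higher count was 1 without 48 h replicate 3.

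Genes of the keratinocyte program moved singly. Beside the list counts that follow, 5.90% of all genes tested were called higher and 7.42% lower. KRT6B, a keratin of stressed and wounded epidermis, went from 66.3, 72.6 and 70.3 RPKM to 157.5, 149.3 and 136.8 RPKM, 2.12-fold higher. KRT15, a basal and stem cell keratin, went from 601.6, 493.3 and 372.9 RPKM to 234.6, 259.3 and 238.4 RPKM, a change of -0.97 ± 0.17 (limma, adjusted p = 0.000736). The untreated KRT15 values were spread, but all lay above every 48 h value. Of 15 keratins 6 were called higher and 2 lower. The count of higher keratins was 3 with untreated replicate 2 or 3 or 48 h replicate 1 or 2 left out and with a block for replicate number, and the lower count was 1 without untreated or 48 h replicate 3. KRT6 genes are close in sequence, so their split is uncertain. The alarmin genes S100A8 and S100A9, whose proteins pair as calprotectin, fell to 48.2% and 56.1% of their untreated means, S100A8 from 45.8, 47.0 and 45.1 RPKM to 23.75, 22.02 and 20.67 RPKM. S100P rose by 1.38, from 3.76, 9.94 and 4.71 RPKM to 13.03, 21.68 and 15.32 RPKM, and was not called in the fit of the 6 libraries alone or without untreated replicate 1 or 48 h replicate 2. In its list of 16 tested S100 and antimicrobial genes 2 were higher and 6 lower. Of 25 cornified envelope genes 4 were higher, led by TGM1 (0.74) and SPRR2D (0.71). In that list 2 were lower, near the share over all genes, among them the protease KLK5 (-0.68). The higher count was 2 without untreated or 48 h replicate 3, and the lower count was 1 without untreated replicate 1 or 48 h replicate 2 or 3 and 4 without 48 h replicate 1. Of 18 basal adhesion genes 5 were higher, such as COL17A1 (0.41), and 3 lower, such as the integrin gene ITGAV (-0.55). Their lower count was 2 in the fit of the 6 libraries alone and without any library but untreated replicate 3. Of 15 genes of the TGF-beta pathway, THBS1, the secreted activator thrombospondin 1, rose 2.40-fold, from 120.2 ± 5.63 to 288.7 ± 3.78 RPKM, and INHBA, a subunit of activin, rose by 0.72. In that list 5 genes were higher and 2 lower, and the lower count was 1 without untreated replicate 1 or 48 h replicate 3.

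SP100 binds PML, and the list of PML body and HIRA chaperone genes was read for this reason. PML rose from 24.4, 24.8 and 25.7 RPKM to 47.4, 52.5 and 51.0 RPKM, 2.02-fold higher (0.98 ± 0.06, limma, adjusted p = 6.50e-09). Of the 20 genes tested, 5 were called higher and 1 lower, where 5.90% and 7.42% of all genes tested were. The other 14 were not called, and the list median was -0.01. The count of higher genes was 1 in the fit of the 6 libraries alone, and 3 without replicate 1 or 2 of either group. HIRA, the histone chaperone, was at 0.19 and DAXX at -0.18, and neither was called. Of 15 genes for HP1 proteins and histone H3K9 methylation, 0 were called higher and 1 lower, near the 7.42% of all genes tested. The lower gene was CBX5, HP1 alpha, at -0.35, from 52.4, 54.7 and 50.3 RPKM to 42.7, 39.0 and 41.3 RPKM.

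The KO libraries at 48 h were next set against those at 12 h, to show which levels had moved on between the times. Over all genes tested 3678 were higher (27.7%) and 1860 lower (14.0%), with a median of 0.08. With median-of-ratios scaling the median was 0.00 and the split was 2532 higher and 2803 lower, or 47.5% higher in place of 66.4%. This comparison shares its 48 h libraries with the one against untreated cells. Of the 99 tested genes in the 14 interferon-related lists 71 were lower and 16 higher at 48 h than at 12 h, and 72 and 13 with scaling.

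The lists divided by family. All 4 IFIT genes and both MX genes were lower at 48 h, as were all 4 OAS genes and 17 of 22 effector genes, with the same numbers of lower genes under scaling. IFIT1 went from 634.5, 628.5 and 621.5 RPKM at 12 h to the 48 h values above, which is 34.8% of its 12 h mean. Of the chemokines, CXCL10 went from 135.6, 126.0 and 119.9 RPKM at 12 h to 2.32, 2.89 and 2.12 RPKM, or 1.92% of the 12 h mean, and CXCL11 from 339.8, 315.4 and 312.3 RPKM to 15.08, 16.87 and 16.87 RPKM, or 5.05%. Both were still called above untreated cells, where CXCL10 was at most 0.08 RPKM. Some genes went the other way. All 4 genes of the IFITM and BST2 list were higher at 48 h than at 12 h, also with scaling. BST2 was at 140.5, 152.0 and 156.0 RPKM at 12 h, and its 48 h mean was 2.81-fold that. IFI27 was at 1002, 1056 and 1078 RPKM at 12 h and 2.40-fold higher at 48 h. Of 7 MHC class I genes 4 were higher and 2 lower under both scalings, with B2M at 1.74-fold and HLA-B at 2.16-fold of the 12 h mean, while NLRC5 was lower by 1.41 on the log2 scale.

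**Figure D4:**
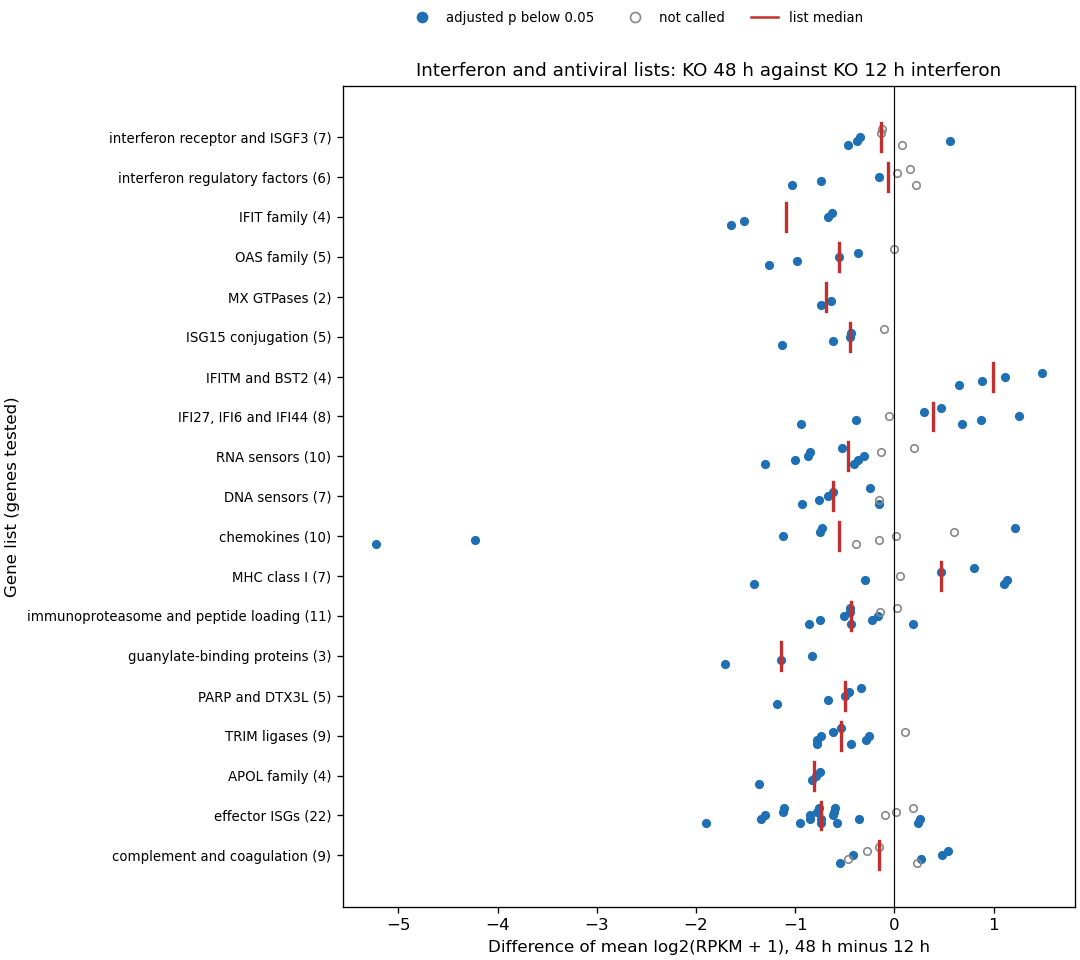
Difference of mean log2(RPKM + 1) between KO cells at 48 h and at 12 h in interferon for each tested gene of the interferon and antiviral lists, with filled points for adjusted p below 0.05, open points for the rest and a red bar for the list median. The IFITM and BST2 list lies to the right of 0 with a median of 1.00, the IFIT list lies to the left with a median of -1.09, and CXCL10 and CXCL11 are the points at -5.22 and -4.23.

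Among genes that were called against both untreated and 12 h cells, the 5 that were lowest relative to 12 h were CXCL10, CXCL11, MMP13 (-2.36), ISG20 (-2.23) and RSAD2 (-1.90). MMP13, collagenase 3, was at 18.81, 15.66 and 17.06 RPKM at 12 h and 2.42, 2.81 and 2.39 RPKM at 48 h. The 5 that were highest included PADI3 (1.85), CHAC1 (1.78), ASNS (1.70) and NGFR (1.60). PADI3, a peptidylarginine deiminase of differentiating epidermis, was at 32.9, 28.2 and 30.7 RPKM untreated, 3.72, 4.60 and 3.79 RPKM at 12 h and 17.51, 16.23 and 17.50 RPKM at 48 h. Its 48 h level thus lay between the others, at 55.8% of the untreated mean. ASNS was at 49.7, 48.6 and 49.0 RPKM untreated, 18.89, 19.40 and 19.50 RPKM at 12 h and 64.7, 64.9 and 65.0 RPKM at 48 h, above the untreated level.

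The same comparison in WT cells shares no library with that in KO cells. Both took the spread of each gene from all 18 libraries, so their calls are not independent. In WT cells 866 genes were called higher (6.52%) and 836 lower (6.30%), with 138 higher by at least 1 (1.04%) and 19 lower by at least 1 (0.143%). Genes called higher in both numbered 506, which is 64.5% of the KO genes and 58.4% of the WT genes, and genes called lower in both numbered 542, or 55.0% and 64.8%. Of the genes higher by at least 1, 123 were shared, which is 93.2% of those in KO and 89.1% of those in WT. Of the 132 in KO, 129 were called higher in WT at any size. The other 3 were S100P and ENSG00000211517 and ENSG00000241069, which have no symbol and are named here because they were the exceptions. ENSG00000211517 was listed at 0 in every untreated KO library and in 2 of 3 untreated WT libraries, and its untreated WT value in the remaining library was 19.09 RPKM. The interaction was not called for any of these 3.

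**Figure D5:**
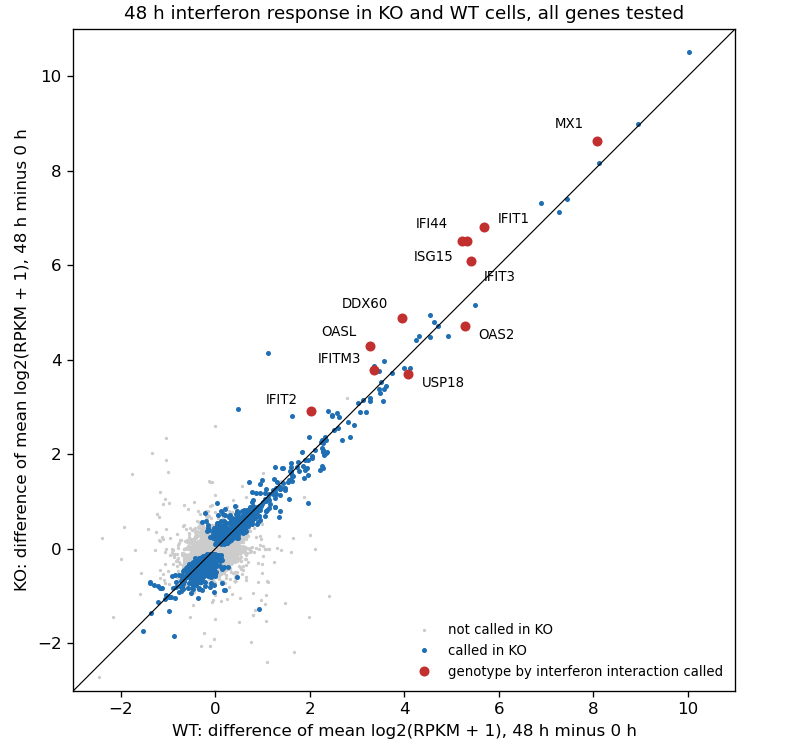
Change at 48 h in KO cells (vertical axis) against that in WT cells (horizontal axis), each as the difference of mean log2(RPKM + 1) from untreated cells, for all 13280 genes tested. Blue points were called in KO, red points have a called genotype by interferon interaction and are named, and the line marks equal change. Most genes with large rises lie near the line, and 9 of the 11 red points lie above it.

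The interaction, the change in KO less that in WT, was called for 11 genes (0.0828%), 9 with a larger rise in KO (0.0678%) and 2 with a smaller one (0.0151%). All 11 rose in both genotypes. Those with the larger rise in KO were IFI44, ISG15, IFIT1, OASL, DDX60, IFIT2, IFIT3, MX1 and IFITM3, and those with the smaller were USP18 and OAS2. The count was 3 when the libraries of the comparison were fitted alone and 7 without WT replicate 2 at 48 h. For 8 of the 9 the untreated KO level was called below the untreated WT level. IFIT1 was at 0.81, 0.83 and 1.22 RPKM in untreated KO and 5.15, 3.86 and 3.94 RPKM in untreated WT cells, without overlap, and at 48 h the KO mean was 218.4 RPKM and the WT mean 271.7 RPKM. IFI44 was at 0.74, 1.19 and 0.50 RPKM in untreated KO and 3.39, 4.66 and 3.47 RPKM in untreated WT cells, and at 48 h at 162.5 ± 7.64 and 177.4 ± 2.27 RPKM, a difference of -0.13 that was not called (limma, adjusted p = 0.647). ISG15 showed the same order, with untreated means of 5.64 and 15.93 RPKM and 48 h means of 597.9 and 673.2 RPKM. MX1 was the exception among the 9: its untreated levels were 0.22, 0.28 and 0.17 RPKM in KO and 0.41, 0.22 and 0.32 RPKM in WT, which overlapped, and at 48 h KO was at 482.5 RPKM and WT at 356.3 RPKM, a difference of 0.44 that was called. OAS2 and USP18 had higher untreated levels in KO, with OAS2 at 12.35, 10.59 and 10.69 RPKM against 6.82, 6.30 and 7.63 RPKM. At 48 h neither differed between the genotypes past the threshold, at 0.06 and -0.07.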

How the data were processed

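RNA was sequenced from 18 libraries of NIKS keratinocytes, 3 in each of 6 groups of genotype and time. The authors deposited 1 table of RPKM values for 16472 Ensembl genes. Per the submitters' processing notes, cutadapt, STAR 2.6.1, RSEM 1.3.0, limma 3.50.3 and the build hg19 were used, with no role or order given. Which reads made up the RPKM total, the annotation and the gene filter are not given in the sources used here. No gene was above 0 in fewer than 2 libraries.

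Symbols named 14576 of the IDs. RPKM values were transformed as log2(RPKM + 1), with a pseudocount of 1. Genes with at least 1 RPKM in at least 3 libraries were fitted in limma 3.58.1 under R 4.3.3, with a cell-means model of 6 groups on all 18 libraries (12 residual degrees of freedom) and variances that follow a mean trend. Contrasts were KO at 48 h against KO at 0 h and at 12 h, WT at 48 h against 0 h, and the genotype by interferon interaction. The Benjamini-Hochberg adjustment covered the 13280 genes tested, and the threshold was 0.05. No count model was run and no counting interval given, since reads per library are unknown.

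The comparison, the 50 gene lists and the rule for named genes were chosen with earlier results of these data known. The rule took SP100, up to 4 called members of a list with groups apart, the 10 largest rises and falls of genes with a symbol outside the lists that reached 5 RPKM, up to 12 interaction genes and the 5 largest differences from 12 h in each direction. Other members are given by value, and some genes that the rule names are not reported here. On simulated data for KO at 48 h against 0 h (13280 genes), the fit recovered 69% of changes of 0.5 and 98% of changes of 1, and 4.6% of its calls were false. The simulation had independent normal noise around 1 mean per gene, 100 changed genes of each size and no shift between libraries. Its 4.6% holds for that setting and is not the false share of the calls reported here.

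Relative depth came from ratios of low values in 895 genes, with 79.1% of library pairs within 3%, so it is approximate. Promoter windows and their coordinates are from RefSeq on GRCh38.p14. As the table's build is hg19, no other coordinates are given. Alternatives were a pseudocount of 0.1, no filter, a mean of at least 5 RPKM, median-of-ratios scaling, the libraries of the comparison alone, variances with no trend, a block for the replicate number and each library left out.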

Additional observations from a re-analysis of the deposited data

Results flagged for a closer look

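The change at 48 h differed between the genotypes, by limma's interaction term with an adjusted p below 0.05, for 11 genes. The interaction on the log2 scale was 1.3 for IFI44, 1.18 for ISG15, 1.13 for IFIT1, 1.01 for OASL, 0.94 for DDX60, 0.90 for IFIT2, 0.69 for IFIT3, 0.54 for MX1 and 0.42 for IFITM3, a larger rise in KO cells. It was -0.38 for USP18 and -0.56 for OAS2, a smaller rise. Over the 19 alternatives IFI44, IFIT1 and OASL kept the call in each, ISG15, IFIT2 and IFIT3 lost it in 1 and MX1 in 2. OAS2 lost it in 6, DDX60 in 8, IFITM3 in 15 and USP18 in 16. For 3 genes an alternative moved the interaction by over 1.5 times: it ranged from 1.17 to 2.04 for IFI44, from 1.02 to 1.76 for IFIT1 and from 0.91 to 1.83 for OASL. Except for MX1, their untreated levels also differed between the lines, as given above, and the part of these levels in the result was not tested.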

How the results depend on the processing

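For KO at 48 h against untreated, 1770 genes were called, 945 with the libraries of the comparison alone and 1159 to 1589 with a library left out, the lowest without untreated KO replicate 1. The interaction gave 11 genes, 3 with its libraries alone and 7 to 11 with a library left out, the lowest without WT replicate 2 at 48 h. The comparisons of KO at 48 h with 12 h (5538 genes) and of WT at 48 h with 0 h (1702 genes) stayed within 1.5 times of these counts under every alternative, with 4739 to 4969 and 1225 to 1336 genes when a library was left out. Scaling by median of ratios gave 856 higher and 828 lower genes at 48 h in KO, or 50.8% higher in place of 44.3%. Same-numbered KO libraries at 0 and 48 h had deviations that correlated at 0.157, -0.016 and -0.013, so the numbers were not taken as pairs. With the replicate block, 1590 genes were called for KO at 48 h against 0 h, 5363 against 12 h, 1518 in WT and 9 for the interaction. Of 2310 values of 179 named genes under alternatives, 2145 kept their call and direction, 165 lost the call and 0 reversed, and 139 genes lost no call. Depth is known only in relative terms, and 3 libraries a group limit the precision.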

Other observations

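Small nucleolar RNA host genes, a list drawn up after the fall of DANCR was seen, were read as a group. Of 25 tested, 5 were called lower and 2 higher at 48 h in KO cells, with a median of -0.12. Over all genes tested 7.42% were lower and 5.90% higher. DANCR, which prompted the list, is 1 of the 5 lower genes. In WT cells 6 host genes were lower and 2 higher, where 6.30% and 6.52% of all genes tested were. In KO cells 9 were higher and 3 lower at 48 h than at 12 h. The shares over all genes there were 27.7% and 14.0%, so those 2 counts were near the shares over all genes.

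Several genes with a rise of at least 1 on the log2 scale outside the lists were abundant before treatment. SHISA5, a membrane protein of the endoplasmic reticulum, went from 104.6 ± 1.17 to 250.9 ± 8.50 RPKM, and LAP3, a leucine aminopeptidase, from 41.9 ± 1.54 to 102.7 ± 3.71 RPKM. These 2 genes were chosen after their values were seen.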
